A study of Mus musculus with 12 samples.

Results

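Complex I (NADH:ubiquinone oxidoreductase) was described gene by gene in 12 mouse hearts. The genes were chosen by symbol: those that begin with Ndufa, Ndufb, Ndufc, Ndufs or Ndufv followed by a digit, and Ndufab1. The rule found 40 of the 19308 genes with counts, all encoded in the nucleus. Assembly factors of the Ndufaf series were left out and serve as a separate list. The genes of complex I that lie in the mitochondrial genome, and Ndufb1, were not analysed here.

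Complex I is the entry point of the respiratory chain. It takes electrons from NADH, passes them along a flavin and a row of iron-sulfur clusters to ubiquinone, and pumps protons across the inner mitochondrial membrane, which drives ATP synthesis. Its N module holds the NADH-binding site, its Q module the ubiquinone-binding site, and its P module, with a proximal and a distal arm, forms the proton pump in the membrane. The core subunits carry out the chemistry and have bacterial counterparts, and the supernumerary subunits surround them and stabilise the assembly. The beating heart makes most of its ATP by mitochondrial respiration, and cardiomyocytes are packed with mitochondria.

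Hearts came from C57BL/6 mice, either wild type (WT) or with a global CRISPR-Cas9 knockout of Fabp3 (F3-KO), the gene of the fatty acid binding protein of heart muscle. Mice had a sham operation or transverse aortic constriction (TAC), which narrows the aorta and loads the left ventricle with pressure, at 8 weeks of age, and hearts were taken 1 week later. The 4 groups were WT sham, F3-KO sham, WT TAC and F3-KO TAC, with 3 hearts each that the labels call biological replicates. The methods name purchased male mice of this strain, WT mice are elsewhere called littermates, and which WT hearts were sequenced and the sex of the F3-KO mice are not given in the sources used here. The knockout was in the whole animal, so that a difference between genotypes need not arise in cardiomyocytes. RNA of the whole heart was sequenced, and in such bulk samples fewer cells of a type and less RNA per cell cannot be told apart.

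Library totals lay between 10424334 and 14372011 estimated counts. Fabp3 stood at 1002 to 1143 CPM (counts scaled to the size of the library) in the 6 F3-KO hearts and at 2117 to 3064 CPM in the 6 WT hearts, so that its RNA was lower but still counted under the knockout label (log2 fold change −1.21 ± 0.15 SE after sham and −1.49 ± 0.15 after TAC, edgeR adjusted p = 0.00784 and 0.00146). The study reports complete loss of the FABP3 protein from knockout hearts by western blot, which RNA counts do not measure. All 8 cardiomyocyte markers were counted in every heart. Myh7, the fetal myosin heavy chain that rises in overloaded hearts, was highest of its group in WT sham replicate 2 (9558 CPM by library total), WT TAC replicate 3 (20080) and F3-KO TAC replicate 3 (22300), and F3-KO TAC replicate 1 had only 189 CPM. A sham heart therefore carried more Myh7 than 2 of the WT TAC hearts. The other hypertrophy markers, Nppa, Nppb and Acta1, did not all follow Myh7. WT sham replicate 2 had the lowest values of all hearts for them (38.7, 99.0 and 46.8 CPM by library total). F3-KO TAC replicate 1 had Acta1 at 3870 and Nppb at 680 CPM, above F3-KO sham hearts (188 to 755 and 164 to 306). Its Nppa (166 CPM) lay within the F3-KO sham range (145 to 333). Results are also given without the 3 hearts of high Myh7 where they differ.

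Of the 40 genes, 8 belong to the N module, 8 to the Q module and 19 to the P module (9 proximal and 10 distal). Ndufab1, the mitochondrial acyl carrier protein, sits in both the Q and the P module. No module was given to 4 genes: Ndufa4, first described in complex I and now counted as a subunit of complex IV, its paralog Ndufa4l2, and the copies Ndufa11b and Ndufb4c. Ndufa11b was the single gene that did not pass the filter on low counts. It had 0 counts in 11 hearts and 2 in F3-KO TAC replicate 3, so that 39 genes were tested. Counts were not whole in at least 1 heart for 18 of the 40 genes, as estimated counts can be where reads fit more than 1 gene. They were not whole in any of the 12 hearts for Ndufs3, Ndufs7 and Ndufs8, and in 11 hearts for Ndufa13, so that this limit holds for those genes too. Ndufb4 and Ndufb4c, and Ndufa11 and Ndufa11b, are similar copies that may share reads, and their values are uncertain. In RefSeq, 7 of the genes overlap another counted gene, among them Ndufa1 (with Rnf113a1), Ndufa13 (Tssk6) and Ndufa4l2 (Shmt2), and their counts may hold reads of that neighbour.

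Together the 40 genes took 1.39% ± 0.13 (SD, n = 3) of all counts in WT sham hearts and 1.37% ± 0.19 in WT TAC hearts. The share was 1.51% ± 0.11 in F3-KO hearts after sham and 1.14% ± 0.17 after TAC. Levels between genes were compared per kilobase of transcript, with lengths from GENCODE, which may differ from the gene models used for counting. In WT sham hearts Ndufa4 was highest, at 1508 ± 316 CPM per kb (SD, n = 3). Ndufb9 followed with 936 ± 153 CPM per kb and Ndufb8 with 768 ± 46.5 CPM per kb, both of the distal P arm. Ndufb9 and Ndufb8 lay within their spread of each other, and Ndufa4 stood above Ndufb9 by more than both SDs together. Ndufs8, a core subunit of the Q module that carries iron-sulfur clusters, had 191.5 ± 17.1 CPM per kb. The lowest of the 38 genes with a transcript length was Ndufa4l2 at 23.6 ± 1.02 CPM per kb. Within the modules the levels ran from 53.0 ± 6.67 CPM per kb (Ndufb2) to that of Ndufb9.

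Upstream sequence was examined because genes of the complex are known targets of a few shared factors, and because their values moved together. RefSeq promoters (build GRCm38.p6, 250 bases before to 50 after the start) matched 33 of the 40 genes. A gene was counted if a promoter of any of its start sites held the letters on either strand. Several start sites were listed for 2 of the 33 genes and for 2208 of the 10762 tested genes with a promoter. The letters AAGATGGC, part of the site of the zinc finger factor YY1, were found for 7 of the 33 genes (21.2%). They were found for 4.97% of the tested genes and for 3.19% of all 27025 genes in the RefSeq table. All 7 matches began 22 to 38 bases after the start, in Ndufa3, Ndufa9, Ndufb8, Ndufc1, Ndufs4, Ndufs6 and Ndufs7. GCGCATGC, of NRF1, was in 3 of 33 (9.09%, against 5.6% of tested genes). CCGGAAG, of the ETS family, was in 4 (12.1%, against 19%). AAGGTCA, bound by estrogen-related receptors, was in 3 (9.09%, against 3.89%), and TATAAA in 4 (12.1%, against 9.18%). Ndufs8 and Ndufa13 are given for their values after TAC, and the other windows for the upstream matches they hold. Each window holds the 100 bases before the start, 5′ to 3′ on the gene's strand, with matches in capitals.
Ndufs8 (chr19:3912775-3912874, minus strand): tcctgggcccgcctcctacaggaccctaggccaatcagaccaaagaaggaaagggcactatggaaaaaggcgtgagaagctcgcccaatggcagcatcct
Ndufa13 (chr8:69902021-69902120, minus strand): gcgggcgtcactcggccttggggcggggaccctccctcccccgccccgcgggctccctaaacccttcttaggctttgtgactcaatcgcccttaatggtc
Ndufs3 (chr2:90904722-90904821, minus strand): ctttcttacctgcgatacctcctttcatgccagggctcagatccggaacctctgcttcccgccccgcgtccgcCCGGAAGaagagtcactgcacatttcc
Ndufb4 (chr16:37654369-37654468, minus strand): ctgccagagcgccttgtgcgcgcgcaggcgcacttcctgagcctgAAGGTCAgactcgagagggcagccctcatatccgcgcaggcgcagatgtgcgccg
Ndufa11 (chr17:56717662-56717761, plus strand): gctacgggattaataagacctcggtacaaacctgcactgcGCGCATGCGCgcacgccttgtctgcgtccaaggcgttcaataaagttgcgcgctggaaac
In Ndufs3 the capitals mark the ETS letters, in Ndufb4 those of estrogen-related receptors, and in Ndufa11 a palindrome in which the NRF1 letters lie on both strands and overlap. The windows of Ndufs8 and Ndufa13 hold none of the 5 motifs. The windows end at the start, and the ETS match of Ndufs8 counted above begins 15 bases after it. A second ETS match of Ndufs3 begins 1 base after the start. No motif searched was found for more than 7 of the 33 genes, and no test was made of these shares.

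After TAC in WT hearts no complex I gene was called. Their median log2 fold change was 0.03, against 0 over all 14094 genes tested, and the medians were −0.02 for N, −0.01 for Q and 0.05 for P. None of the 39 passed an adjusted p under 0.05 in edgeR, DESeq2 or limma, where edgeR called 0% of all genes. None reached an unadjusted p of 0.05 either (6.28% of all genes, 2.6% lower and 3.68% higher), and in none did the 3 TAC hearts fall outside the 3 sham hearts (4.43% of all genes were lower and 4.67% higher in this way). Ndufa1, a small membrane protein of the proximal arm that complex I cannot be assembled without, had the lowest value. It stood at 133, 139 and 111 CPM in the WT sham hearts and at 73.2, 102 and 134 CPM in the WT TAC hearts, so that the groups overlapped. Its log2 fold change was −0.31 ± 0.22 (SE, adjusted p = 0.836, edgeR, 95% interval −0.78 to 0.16). The highest value was that of Ndufa11, a proximal-arm protein at the contact with complex III in the supercomplex. It had 292, 264 and 277 CPM after sham and 269, 355 and 338 CPM after TAC, a log2 fold change of 0.21 ± 0.15 (adjusted p = 0.84, edgeR). For both genes WT TAC replicate 1 was the lowest heart of its group.

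That heart set the spread of the WT TAC group. Set against the WT sham mean on the log2 scale, the median of the 39 genes was −0.31 in WT TAC replicate 1, 0.17 in replicate 2 and 0.18 in replicate 3. WT sham hearts lay at 0.09, 0.06 and −0.14. The intervals of single genes therefore allow changes of moderate size in either direction, such as −0.37 to 0.41 for Ndufs8 and −0.44 to 0.39 for Ndufs7.

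After TAC in F3-KO hearts all 39 genes had a lower fitted level than after sham (47.1% of all genes did), with a median log2 fold change of −0.47 (0.02 over all genes). The median was −0.48 in the N module, −0.56 in the Q module and −0.45 in the P module (−0.39 proximal, −0.47 distal). The 7 core subunits had a median of −0.55 and the 28 supernumerary subunits of the modules, without Ndufab1, −0.47. No gene passed an adjusted p under 0.05 in edgeR (0% of all genes passed either) or in limma. At an unadjusted p of at most 0.05, 27 of 39 (69.2%) were lower in edgeR, against 6.47% of all genes tested. The 3 TAC hearts lay below the 3 sham hearts in 23 genes (59%, against 11.4% of all genes). By module, the unadjusted count was 6 of 8 for N, 7 of 8 for Q and 13 of 19 for P.

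DESeq2, the tool the study names, called 5 of the 39 at an adjusted p under 0.05 (3.14% of all genes), all lower: Ndufs8, Ndufa13, Ndufs3, Ndufs7 and Ndufb8. Of these, only Ndufb8 had whole counts in every heart. In edgeR without F3-KO TAC replicate 3, 7 were called (5.43% of all genes), and without the 3 hearts of high Myh7, 13 (9.18%). Both fits leave out the F3-KO TAC heart with the highest complex I median of its group. They keep F3-KO TAC replicate 2, the lowest of the 12 hearts for 35 of the 39 genes. Leaving out F3-KO TAC replicate 2 took the unadjusted count from 27 to 5 (9.94% of all genes). The count was 8 without F3-KO sham replicate 1 (12.2% of all genes) and 8 without replicate 3 (9.44%).

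**Figure D1:**
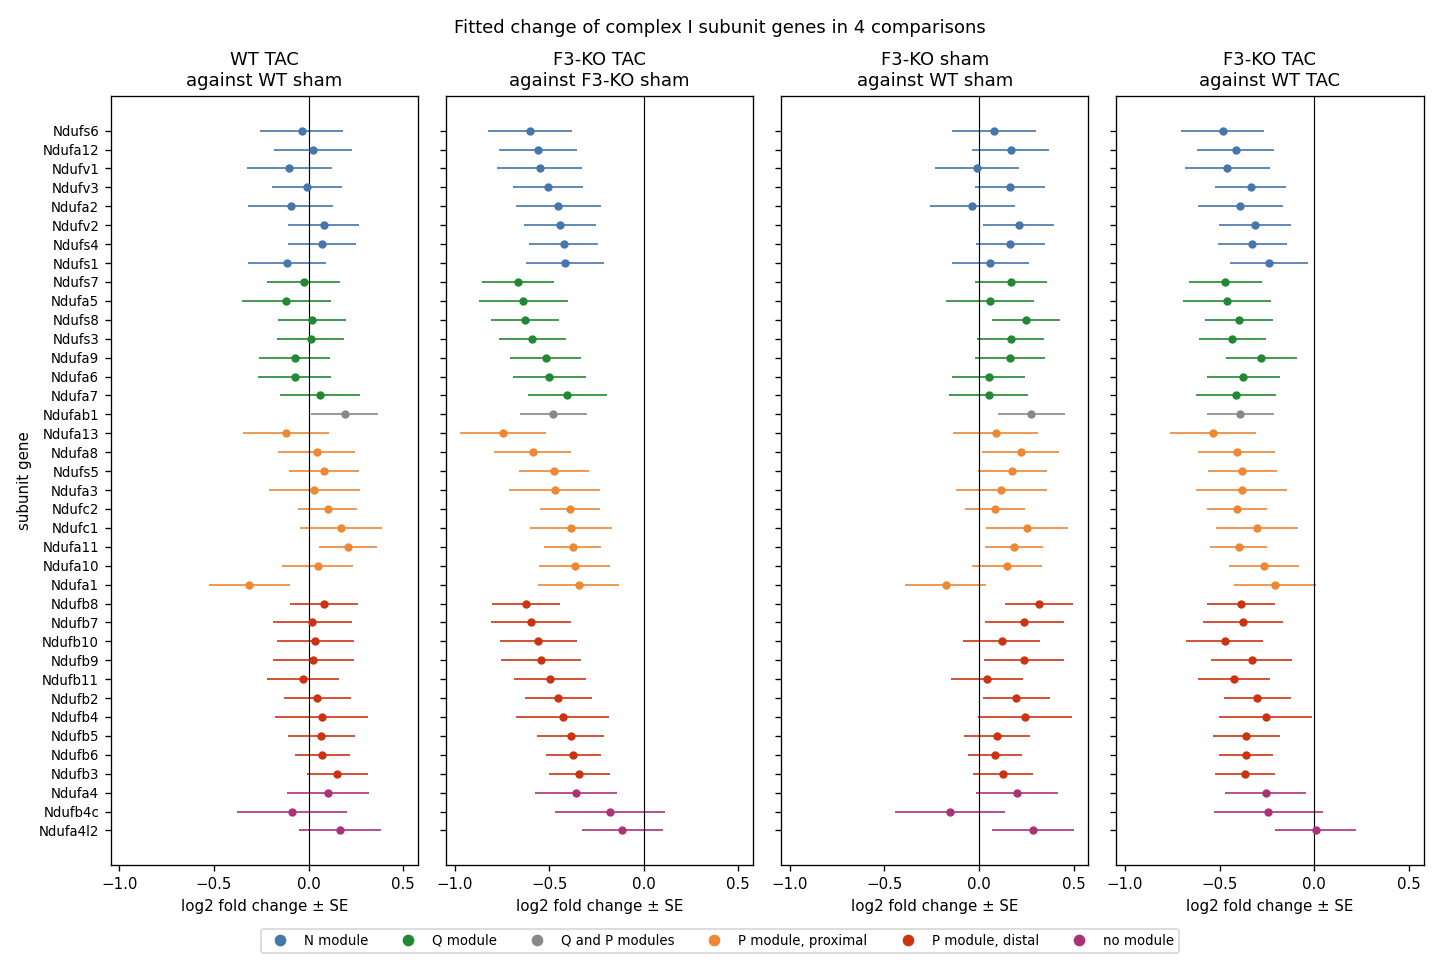
Fitted log2 fold change ± SE (horizontal axis) of 38 of the 39 tested genes (vertical axis, grouped by module and coloured by it) in the 4 comparisons. In F3-KO hearts after TAC all points lie left of 0, from −0.74 (Ndufa13) to −0.11 (Ndufa4l2), while in WT hearts after TAC they lie on both sides of 0.

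Among the core subunits of the Q module, which hand electrons from the iron-sulfur clusters to ubiquinone, Ndufs7 had the lowest fold change. This carrier of the last cluster before ubiquinone stood at 514, 417 and 501 CPM after sham and at 272, 244 and 387 CPM after TAC, and the groups did not overlap. Its log2 fold change was −0.67 ± 0.19 (SE, adjusted p = 0.178, edgeR). Ndufs8, its neighbour in the electron path, had 251, 191 and 228 CPM after sham and 156, 120 and 158 CPM after TAC. The groups did not overlap, and its −0.63 ± 0.18 came with the lowest adjusted p of the 39 genes (0.176, edgeR). Ndufs3, a subunit of the same arm in the matrix, had 477, 425 and 510 CPM after sham and 324, 246 and 369 CPM after TAC (−0.59 ± 0.18, adjusted p = 0.179, edgeR), again without overlap. All 3 of these core genes were thus lower in each F3-KO TAC heart than in any F3-KO sham heart.

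The core subunits of the N module were lower with more overlap. Ndufv1 binds the flavin and NADH. Its levels were 750, 684 and 812 CPM after sham and 436, 397 and 701 CPM after TAC, where replicate 3 lay inside the sham range (−0.55 ± 0.22, adjusted p = 0.243, edgeR). Ndufs1, the largest subunit and a carrier of several clusters, had 618, 732 and 741 CPM after sham and 514, 403 and 651 CPM after TAC (−0.41 ± 0.21, adjusted p = 0.324, edgeR). Ndufv2, with a cluster beside the flavin, had 601, 552 and 649 CPM after sham and 478, 330 and 518 CPM after TAC, without overlap (−0.44 ± 0.19, adjusted p = 0.262, edgeR).

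In the membrane arm, Ndufa13 had the lowest value of all 39 genes. This subunit, also known as GRIM-19, was found as a cell death regulator and is needed for assembly of the complex. It stood at 491, 352 and 424 CPM after sham and at 230, 213 and 313 CPM after TAC, with no overlap (−0.74 ± 0.23, adjusted p = 0.182, edgeR). Ndufb8, a distal-arm protein often used on blots as a marker of assembled complex I, had 695, 557 and 702 CPM after sham and 428, 336 and 504 CPM after TAC, also without overlap (−0.62 ± 0.18, adjusted p = 0.178, edgeR). Genes outside the modules had smaller differences than these. Ndufa4 had 1062, 940 and 1174 CPM after sham and 814, 653 and 1011 CPM after TAC (−0.36 ± 0.22, adjusted p = 0.419, edgeR). Ndufa4l2, a hypoxia-induced gene whose product lowers complex I activity, had 30.8, 23.7 and 26.3 CPM after sham and 30.7, 25.5 and 18.6 CPM after TAC (−0.11 ± 0.21, adjusted p = 0.827, edgeR), and its value turned to 0.028 without the 3 hearts of high Myh7.

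**Figure D2:**
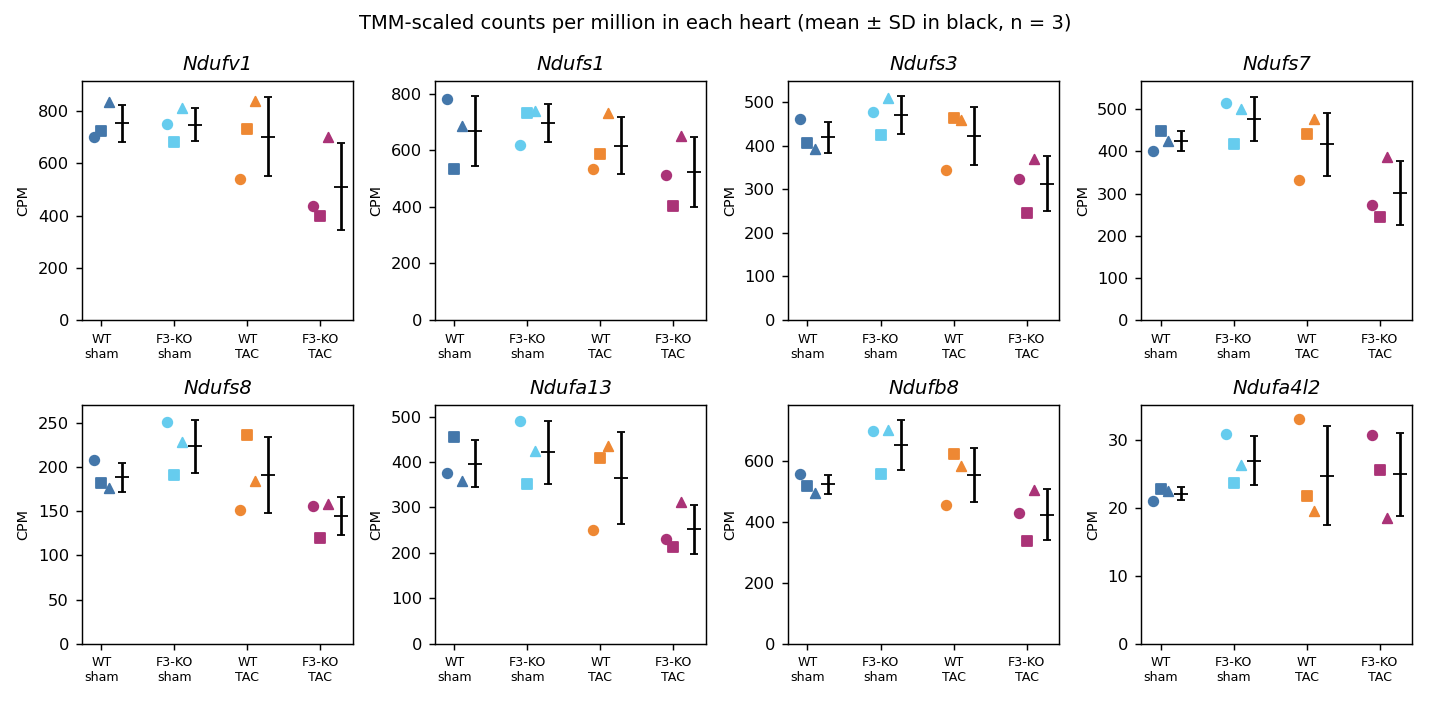
TMM-scaled CPM (vertical axes, from 0) of 8 genes in each heart, by group; circles, squares and triangles are replicates 1, 2 and 3, and the black bar is the mean ± SD of 3 hearts. The F3-KO TAC hearts lie below the F3-KO sham hearts for Ndufs3, Ndufs7, Ndufs8, Ndufa13 and Ndufb8, and within them in part for Ndufv1, Ndufs1 and Ndufa4l2.

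The lower level was not even over the F3-KO TAC hearts. Against the WT sham mean, the median of the 39 genes was −0.35 in replicate 1, −0.65 in replicate 2 and −0.08 in replicate 3. In the F3-KO sham hearts it was 0.22, −0.01 and 0.26. F3-KO TAC replicate 2 was the lowest of the 12 hearts for 35 of the 39 genes, and F3-KO sham replicates 3 and 1 were the highest for 14 and 10. The modules lay close together within a heart. In F3-KO TAC replicate 2 the medians were −0.68 for N, −0.74 for Q and −0.62 for P, and over the 12 hearts N minus P was −0.12 to 0.07 and Q minus P −0.15 to 0.07. Q minus P was below 0 in all F3-KO TAC hearts (−0.15, −0.12 and −0.06), but values of this size were not particular to that group. In WT TAC hearts it was 0.01, −0.13 and −0.06, in WT sham hearts 0.07, −0.07 and 0.04, and in F3-KO sham hearts −0.06, 0.02 and −0.01. The SD of a module's median between hearts of the same group, pooled over the 4 groups, was 0.24 for N, 0.22 for Q and 0.22 for P.

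**Figure D3:**
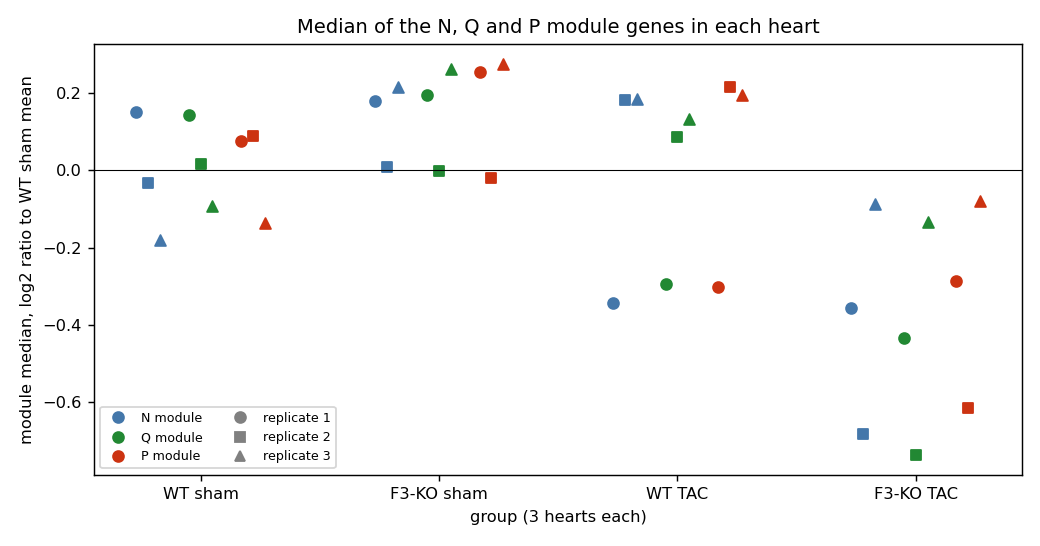
Median log2 ratio to the WT sham mean (vertical axis) of the N, Q and P module genes in each of the 12 hearts, with colours for modules and shapes for replicates. The 3 modules lie close together in every heart, from −0.74 (Q, F3-KO TAC replicate 2) to 0.27 (P, F3-KO sham replicate 3).

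Several marker lists of cell types moved with these values in F3-KO hearts. The summed level of the 8 cardiomyocyte markers was 74970 to 80920 CPM (by library total) in F3-KO sham hearts and 45650 to 57290 CPM in F3-KO TAC hearts. Myh6, the adult myosin heavy chain, made up 58.9% of the difference in means, with 31920 to 33870 CPM after sham and 15330 to 23040 CPM after TAC. Of the 8 markers, 5 were lower in all F3-KO TAC hearts and 3 overlapped, among them Actn2 (2593, 2360 and 2401 CPM after sham, 2564, 2372 and 2677 CPM after TAC) and Ryr2 (1255, 1449 and 1294 CPM, then 1240, 1329 and 1521 CPM). It was 59610 to 75560 CPM in WT sham and 60510 to 79060 CPM in WT TAC. The sum of 6 fibroblast markers was 923 to 1277 CPM in F3-KO sham and 1406 to 6548 CPM in F3-KO TAC, with the highest value in replicate 2 and lower ones in replicates 1 (3816) and 3 (1406). It was 657 to 1503 CPM in WT sham and 1278 to 2944 CPM in WT TAC. WT TAC replicate 1, with the lowest complex I median of its group, had the highest fibroblast sum and the lowest cardiomyocyte sum of it. All 6 fibroblast and 6 macrophage markers were counted in every heart, and the macrophage sum was 325 to 381 CPM in F3-KO sham and 468 to 756 CPM in F3-KO TAC. The sum of 5 red blood cell markers was 3643, 1070 and 4493 CPM in F3-KO hearts after sham and 980, 930 and 366 CPM after TAC. Among F3-KO hearts it was thus highest in the pair of sham hearts with the highest complex I medians. WT hearts did not share this order. Their sums were 1742, 656 and 1592 CPM after sham and 4357, 2002 and 299 CPM after TAC. WT TAC replicate 1 thus had the highest sum of its group with the lowest complex I median, and replicate 3 the reverse. The part of cell composition in the complex I values was not tested.

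Complex I counts were therefore also set against cardiomyocyte marker counts within each heart, a ratio chosen after the values were seen. For each 100 counts of the 8 cardiomyocyte markers there were 19.4, 18.5 and 20.1 complex I counts in F3-KO hearts after sham and 20.6, 20.9 and 22.5 after TAC. The F3-KO TAC values lay above those of F3-KO sham with this sum, but the order depended on the marker. WT sham hearts had 19.6, 24.2 and 16.8 and WT TAC hearts 19.1, 18.9 and 21.1. Without Myh6, F3-KO hearts had 33.3, 32.2 and 34.2 complex I counts per 100 marker counts after sham and 34.8, 31.9 and 30.7 after TAC, and the groups overlapped. Per count of Actn2 there were 6.05, 5.87 and 6.57 complex I counts after sham and 4.56, 4.01 and 4.81 after TAC, and the F3-KO TAC hearts were all lower. Over the 8 markers taken singly, the F3-KO TAC ratios were all lower for 2 (Actn2 and Ryr2), all higher for 2 (Myh6 and Tnni3) and overlapped for 4. A ratio of this kind shows unequal change only.

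**Figure D4:**
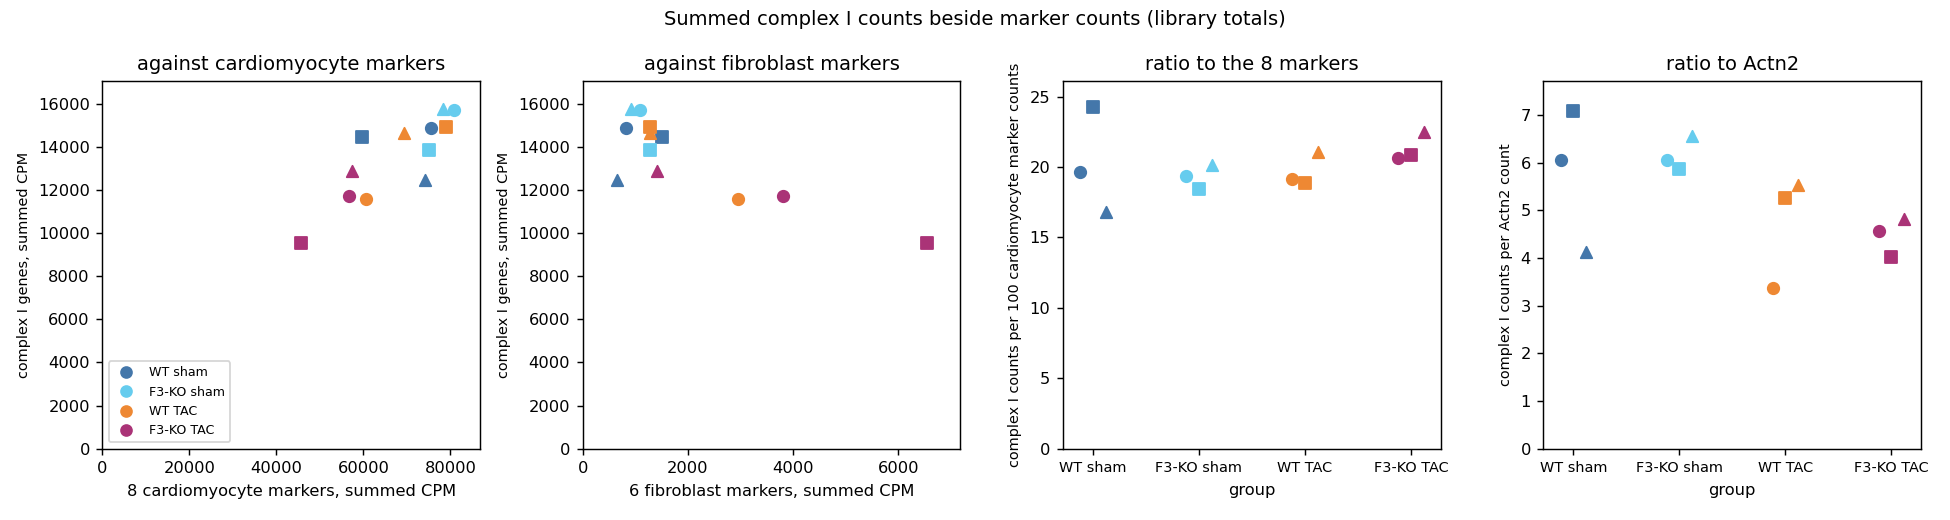
In the panels on the left, summed CPM of the 40 complex I genes (vertical axes) against the summed CPM of 8 cardiomyocyte markers and of 6 fibroblast markers in each of the 12 hearts; in the panels on the right, complex I counts per 100 counts of the 8 markers and per count of Actn2, by group (circles, squares and triangles are replicates 1, 2 and 3). F3-KO TAC replicate 2 has the lowest complex I sum (9521 CPM) and the highest fibroblast sum (6548 CPM), and the F3-KO TAC ratios lie above those of F3-KO sham for the 8 markers (20.6 to 22.5) and below them for Actn2 (4.01 to 4.81).

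Base composition of the transcripts also went with the size of the fold change after TAC in F3-KO hearts. Among the 36 genes of the modules, the 18 with less GC (42% to 52.1%) had a median of −0.43 and the 18 with more GC (52.2% to 60.7%) of −0.55. Pearson's r across these genes was −0.66 and Spearman's rho −0.64. The genes share hearts and libraries and are not independent replicates. Over the 13238 tested genes with a transcript the values were −0.12 and −0.17, in the same direction. By heart, the GC-rich genes minus the others gave −0.13, −0.09 and −0.07 after TAC and 0.10, −0.06 and −0.04 after sham in F3-KO hearts, on the log2 scale. WT hearts gave −0.11, 0.007 and −0.05 after TAC and −0.05, −0.02 and 0.10 after sham, so that such values were not particular to F3-KO TAC hearts. Across the 36 genes, r was −0.57 between genotypes after TAC, −0.19 after TAC in WT hearts and 0.06 between genotypes after sham. The part of base composition in the result was not tested. Split by transcript length, the shorter and the longer genes both had medians of −0.49. Split by level per kb in WT sham hearts, the 18 lower genes had a median of −0.43 and the 18 higher genes of −0.55 (r −0.42, rho −0.51, n = 36).

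Between genotypes after sham, the median of the complex I genes was 0.16 higher in F3-KO hearts (−0.00 over all genes), and 4 of the 39 lay below 0 (50.8% of all genes). The medians were 0.12 for N, 0.15 for Q and 0.15 for P. No gene passed an adjusted p under 0.05 in edgeR, DESeq2 or limma (0.106% of all genes in edgeR), and none an unadjusted p of 0.05 (6.02%, 3.21% lower and 2.81% higher). In 3 genes (7.69%) all F3-KO hearts lay above all WT hearts, near the 6.78% of all genes, and none were lower in this way (6.92% of all genes). These were Ndufb8, Ndufab1 and Ndufa4l2. Ndufb8 had the highest value: 556, 518 and 493 CPM in WT sham and 695, 557 and 702 CPM in F3-KO sham, the nearest hearts being 556 and 557 (0.32 ± 0.18, adjusted p = 0.97, edgeR). Ndufa1 had the lowest, with 125, 97.1 and 117 CPM in F3-KO sham against the WT sham values above (−0.18 ± 0.22).

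Between genotypes after TAC, 38 of the 39 genes had lower values in F3-KO hearts (46.9% of all genes did). The exception was Ndufa4l2, at 33.0, 21.7 and 19.5 CPM in WT TAC (0.01 ± 0.22, and −0.0178 in a fit of only the 6 TAC hearts). The median was −0.38 (0.02 over all genes), with −0.36 for N, −0.41 for Q and −0.38 for P. No gene passed an adjusted p under 0.05 in edgeR, DESeq2 or limma (0.078% of all genes in edgeR). At an unadjusted p of at most 0.05, 12 of 39 (30.8%) were lower, against 4.16% of all genes (5.84% were higher): 1 of the N module, 3 of Q, 7 of P, and Ndufab1. The groups overlapped in all 39, whereas 5.1% of all genes were lower and 6.3% higher without overlap. The lowest value was again that of Ndufa13, with 250, 410 and 436 CPM in WT TAC (−0.54 ± 0.23, adjusted p = 0.474, edgeR). Ndufs7 had 332, 442 and 476 CPM in WT TAC (−0.47 ± 0.19), and Ndufs3 344, 464 and 458 CPM (−0.43 ± 0.18). For each of these genes WT TAC replicate 1 lay inside the F3-KO TAC range, and the other two WT TAC hearts lay above it.

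The unadjusted count of this comparison depended on single hearts. It was 29 without WT TAC replicate 1 (15.6% of all genes) and 31 without F3-KO TAC replicate 3 (18.6%). It was 0 without WT TAC replicate 2 (7.39%), without WT TAC replicate 3 (7.11%) or without F3-KO TAC replicate 2 (5.94%). It was 6 without WT sham replicate 1 (9.76%), 7 without F3-KO sham replicate 3 (9.1%) and 3 without F3-KO TAC replicate 1 (7.13%), the last a share of the members near that of all genes. With library totals in place of TMM it was 3 (11.6% of all genes), and with only the 6 hearts compared 1 (5.94%), both smaller shares than over all genes. This comparison and the TAC comparison in F3-KO hearts share the F3-KO TAC hearts, so that their values are not independent of each other.

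The difference between the TAC effects of the genotypes was tested as an interaction. All 39 genes had values below 0 (45.8% of all genes), with a median of −0.50 (0.03 over all genes) and −0.50, −0.52 and −0.50 for N, Q and P. None passed an adjusted p under 0.05 in edgeR, DESeq2 or limma (0% of all genes in edgeR), and 9 (23.1%) were below 0 at an unadjusted p of at most 0.05, against 2.18% of all genes (2.31% above 0, 4.48% in all). The lowest was Ndufb8 at −0.71 ± 0.25 (adjusted p = 0.954, edgeR), whose group mean was highest in F3-KO sham (651 CPM) and lowest in F3-KO TAC (423 CPM). The count of 9 depended on single hearts. It was 31 without F3-KO TAC replicate 3 (9.79% of all genes) and 25 without WT TAC replicate 1 (7.84%). It was 2 without WT TAC replicate 2 (3.65%) or F3-KO sham replicate 1 (3.93%), 3 without WT sham replicate 3 (4.55%) or F3-KO TAC replicate 2 (3.66%), and 4 without F3-KO sham replicate 3 (2.75%) or WT TAC replicate 3 (4.61%). The TAC effect was not shown to differ between genotypes for any single gene.

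Of 19 assembly factors, which build the complex and leave it, 18 were lower after TAC in F3-KO hearts (47.1% of all genes were), with a median of −0.28. At an unadjusted p of at most 0.05 in edgeR, 4 of the 19 were lower, where 6.47% of all genes were lower and 10.6% higher. These were Ecsit (−0.50), Ndufaf8 (−0.50), Foxred1 (−0.41) and Ndufaf1 (−0.38). Their median between genotypes after TAC was −0.16. No assembly factor passed an adjusted p under 0.05 in edgeR. The other respiratory complexes had medians close to complex I after TAC in F3-KO hearts: −0.51 for 4 genes of complex II, −0.47 for 9 of complex III, −0.50 for 11 of complex IV and −0.54 for 15 of ATP synthase. Every gene of these 4 lists lay below 0 (47.1% of all genes did), and none passed the adjusted threshold in edgeR (0% of all genes). Lower values were thus found for nuclear genes of the whole respiratory chain, with no larger median for complex I.

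Among 12 regulators of respiratory genes, 9 were lower after TAC in F3-KO hearts (47.1% of all genes were) and the median was −0.13. In WT hearts, where complex I had a median of 0.03, 11 of the 12 were lower after TAC (50% of all genes). The regulator median there was −0.17. Between genotypes after TAC 6 of the 12 were lower (46.9% of all genes), with a median of 0.01. The values that follow are those after TAC in F3-KO hearts. Ppara, the receptor that drives fatty acid oxidation genes, had −0.54 ± 0.18 (adjusted p = 0.184, edgeR). Esrra, an estrogen-related receptor of mitochondrial genes, had −0.48 ± 0.16 (adjusted p = 0.184, edgeR). Ppargc1a, the coactivator of mitochondrial biogenesis, had −0.27 ± 0.23, Nrf1 −0.10 ± 0.13 and Yy1 0.04 ± 0.10.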

How the data were processed

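RNA of 12 hearts in 4 groups of 3 was sequenced. The authors filtered reads with SOAPnuke, and the submitters' processing notes name HISAT2 2.0.4, STAR 2.3.0, DESeq2 and the builds mm8 and mm9 without a role; the counting tool is not given in the sources used here. The authors deposited estimated counts per gene, not normalized, of which 40.6% were not whole numbers; they were rounded for testing, as the design allowed for. Of 12 separate tables of single hearts, 11 held the same values as the joint table, and the other, which breaks off, was not used.

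Genes with low counts were removed with filterByExpr (minimum count 10), which left 14094 of 19308. Counts were scaled by TMM (factors 0.931 to 1.09) and tested with edgeR 4.0.16 (quasi-likelihood, R 4.3.3) on group, all 12 hearts sharing the spread, with Benjamini-Hochberg adjustment over all 14094 genes. DESeq2 1.42.0 and limma 3.58.1 were alternatives, and the code was tested on simulated data. SEs were derived from the edgeR F statistic, and 95% intervals from it and the fit's degrees of freedom. CPM are TMM-scaled unless said to be by library total, where 3 counts equal 0.209 to 0.288 CPM. Medians over modules are descriptions with no test. Named with values in every heart were, by rule, the genes of highest and lowest fold change in each comparison, the core subunits (1 is not reported here by itself and enters the counts and medians only), Ndufa4, Ndufa4l2 and genes that failed the filter. The members and lists were chosen with earlier results of these data known. Promoters are from RefSeq (GRCm38.p6) and transcript lengths and GC from GENCODE; no gene coordinates of the counts were used. The p-values set a difference between groups against the spread between these hearts. Nothing in the sources used here says how hearts were processed together, so a batch that follows the groups cannot be told apart from them.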

Additional observations from a re-analysis of the deposited data

How the results depend on the processing

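With single hearts left out, the medians of N, Q and P stayed below 0 after TAC in F3-KO hearts (−0.63 to −0.38, −0.71 to −0.43 and −0.58 to −0.33), between genotypes after TAC (−0.53 to −0.23, −0.58 to −0.28 and −0.51 to −0.26) and for the interaction (−0.64 to −0.36, −0.72 to −0.37 and −0.69 to −0.41). After sham they ran from 0.068 to 0.20, 0.073 to 0.21 and 0.061 to 0.21, and after TAC in WT hearts they turned sign (−0.11 to 0.15, −0.096 to 0.11 and −0.032 to 0.21). Scaling by library totals moved the median of all genes to 0.12 after TAC in F3-KO hearts and to 0.12 between genotypes after TAC, and to 0.16 for the interaction, and that of the complex I genes to −0.39, −0.28 and −0.37. Counts of complex I genes called follow, with the share of all genes in brackets. After TAC in F3-KO hearts edgeR called 0 at the adjusted threshold (0%) and 27 unadjusted (17.1%), DESeq2 5 (3.14%) and 31 unadjusted (18%), and edgeR 13 without the 3 hearts of high Myh7 (9.18%); leaving out single hearts gave 0 to 7 adjusted (up to 5.43%) and 5 to 36 unadjusted (9.44% to 24.6%). Between genotypes after TAC the unadjusted count was 12 (10%), 19 in DESeq2 (10.6%), 3 with library totals (11.6%), 1 with only the 6 hearts compared (5.94%), 19 without the 3 hearts of high Myh7 (15.5%), and 0 to 31 with single hearts left out (5.94% to 18.6%). For the interaction it was 9 (4.48%), 17 in DESeq2 (5.02%), 18 without the 3 hearts (8.03%) and 2 to 31 with single hearts left out (2.75% to 9.79%). After TAC in WT hearts it was 0 (6.28%), 1 without the 3 hearts (13.9%) and 0 to 1 with single hearts left out (3.5% to 9.19%); between genotypes after sham it was 0 (6.02%), and 1 with only the 6 hearts compared (8.58%). The cause of these moves was not tested, beyond the hearts left out. Among the 22 genes with whole counts in every heart, the median was −0.46 after TAC in F3-KO hearts and −0.36 between genotypes after TAC. At an unadjusted p of at most 0.05 in edgeR, 16 and 5 of the 22 were lower (6.47% and 4.16% of all genes). Leaving out the 3 hearts of high Myh7, leaving out the genes with counts that were not whole, and running all alternatives on the unadjusted counts were chosen after seeing the data.

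Of single genes, Ndufa4l2 turned to 0.028 without the 3 hearts of high Myh7 after TAC in F3-KO hearts and to −0.0178 with only the 6 hearts compared between genotypes after TAC. With single hearts left out, these values ran through 0: after TAC in WT hearts Ndufa13 −0.27 to 0.092, Ndufa4l2 −0.10 to 0.31 and Ndufb8 −0.014 to 0.20; after TAC in F3-KO hearts Ndufa4l2 −0.30 to 0.057; between genotypes after sham Ndufa13 −0.033 to 0.20; between genotypes after TAC Ndufa1 −0.40 to 0.024 and Ndufa4l2 −0.17 to 0.27.

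Replicate numbers are shared between groups but the labels do not say that they pair hearts. Same-numbered hearts of different groups had correlations of −0.14 to 0.36, 4 of 18 above 0.1. Hearts of different numbers had −0.36 to 0.20, 2 of 36 above 0.1. Whether the numbers mark a shared batch was not tested. With the replicate block the unadjusted counts were 0 in WT after TAC (6.26% of all genes), 29 in F3-KO after TAC (17.1%), 0 between genotypes after sham (5.7%), 9 after TAC (9.84%) and 6 for the interaction (4.5%), and no complex I gene was called at the adjusted threshold.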
